A study of Homo sapiens with 4 samples.

Results

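The circadian clock genes described here are PER1, PER2, PER3, CRY1, CRY2, ARNTL, CLOCK, NR1D1, NR1D2 and BHLHE40, 10 of the 57820 gene identifiers counted in SY5Y cells. They were chosen by name, as known parts of the clock, and were matched to identifiers through their symbols in GENCODE on GRCh37 (hg19), where ARNTL is named BMAL1. SY5Y is a human NB cell line, labelled MYCN wild type. Per the labels, all 4 libraries came from this line, 2 from cells treated with the solvent DMSO and 2 from cells treated with 3 μM SGSS05-NS, harvested after 12 h. SGSS05-NS is a compound studied as an inhibitor of the histone methyltransferase SETD8. The study's methods name the compound SGSS05-NS3 and give a lower dose for this line. Its figure legends give 3 μM SGSS05-NS3 for 12 h for the expression data of SY5Y. The study's discussion also lists a compound named SGSS05-NS in the same chemical series. Whether the 2 names mean the same molecule cannot be told, and the name and dose used here are those of the labels. The methods call the replicates independent and biological.

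The clock is a feedback loop of transcription found in most cells. ARNTL (BMAL1) and CLOCK form an activator that binds E-box sequences, among others those of the PER, CRY and NR1D genes, and the PER and CRY proteins return to the nucleus and repress that activator. The NR1D1 and NR1D2 receptors (REV-ERBα and REV-ERBβ) repress ARNTL at a sequence called RORE, at which the ROR receptors activate it, and BHLHE40 (DEC1) competes for E-boxes. PER1 can also be induced within hours by signals that act through CREB. All libraries come from a single time after treatment, so a change in the level of a clock gene and a shift in the phase of a rhythm cannot be told apart.

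To show where these factors can act, the sequences upstream of PER1, CRY1, NR1D1 and NR1D2, members with an E-box or E′-box there and differing values below, are given from RefSeq (build GRCh38.p14), each 250 bases long, ending at the base before the annotated start and written 5′ to 3′ on the strand of the gene. All 10 members had at least 1 promoter window there, 15 windows in all. Capitals mark E-boxes (CACGTG), E′-boxes (CACGTT, or AACGTG on the other strand) and D-boxes (TTATGTAA or TTACGTAA, or their complements), which are the sites of the ARNTL and CLOCK activator and of the PAR bZip factors. PER1 lies at chr17:8152405-8152654 (minus strand), CRY1 at chr12:107093550-107093799 (minus), NR1D1 at chr17:40100590-40100839 (minus) and the second start of NR1D2 at chr3:23945871-23946120 (plus).
PER1: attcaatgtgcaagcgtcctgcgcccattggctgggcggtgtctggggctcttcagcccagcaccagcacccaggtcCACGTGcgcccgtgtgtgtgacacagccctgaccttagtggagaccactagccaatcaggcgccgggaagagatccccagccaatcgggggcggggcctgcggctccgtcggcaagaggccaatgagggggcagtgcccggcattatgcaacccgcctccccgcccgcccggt
CRY1: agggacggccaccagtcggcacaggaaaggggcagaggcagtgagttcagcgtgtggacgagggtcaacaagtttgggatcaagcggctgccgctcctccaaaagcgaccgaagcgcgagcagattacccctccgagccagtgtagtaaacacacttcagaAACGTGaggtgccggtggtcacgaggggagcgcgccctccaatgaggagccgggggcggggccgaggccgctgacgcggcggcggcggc
NR1D1: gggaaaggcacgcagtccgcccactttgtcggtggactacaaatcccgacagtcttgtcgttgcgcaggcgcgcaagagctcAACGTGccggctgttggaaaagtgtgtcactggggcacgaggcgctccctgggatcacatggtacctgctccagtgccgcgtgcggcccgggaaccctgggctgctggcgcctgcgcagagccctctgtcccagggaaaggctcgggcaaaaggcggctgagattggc
NR1D2: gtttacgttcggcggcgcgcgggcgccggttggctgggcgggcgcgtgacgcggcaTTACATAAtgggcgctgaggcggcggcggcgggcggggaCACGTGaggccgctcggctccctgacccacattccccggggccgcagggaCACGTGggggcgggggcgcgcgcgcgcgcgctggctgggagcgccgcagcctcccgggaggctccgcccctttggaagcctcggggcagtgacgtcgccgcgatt

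The E-box of PER1 began 173 bases before the start and the E-boxes of NR1D2 155 and 105 bases before it. The E′-box began 89 bases before the start of CRY1 and 168 before that of NR1D1. Over the whole windows, which run 50 bases past the start, an E-box stood in 3 of the 10 members (PER1, NR1D2 and BHLHE40), an E′-box in 5 (PER2, CRY1, CRY2, CLOCK and NR1D1) and a D-box in 3 (PER2, PER3 and NR1D2). Of all 35116 promoter windows of this length, 7.26% held an E-box, 5.34% an E′-box and 1.01% a D-box on either strand. A RORE core (TAGGTCA) stood in ARNTL and CRY2, and in 1.85% of all windows. In ARNTL it began 30 bases after the start and is shown in capitals within 27 bases at chr11:13277810-13277836 (GRCh38.p14, plus strand), because this is the element type through which the NR1D receptors act on ARNTL.
ARNTL: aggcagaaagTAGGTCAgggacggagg
No member held a full cAMP response element (TGACGTCA, in 1.85% of all windows) in these windows, while its half-site (TGACG, in 24.6%) stood in 5 members. These were PER2, CRY1, CRY2, CLOCK and NR1D2, and PER1 held none. The half-site is part of the full element. A match is a match of letters, and binding was not measured.

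Fragments assigned to genes on the sense strand came to between 21463105 and 25350204 per library, and 16468 genes had enough counts for the test. Fragments that matched no annotated exon on the sense strand made up 12.3% to 12.4% of a DMSO library and 15.3% to 16.1% of an SGSS05-NS library. The defining markers of noradrenergic NB were present, except TH, with 0 to 2 fragments per library. Their summed level was 3523 and 3812 CPM (counts scaled to library size by TMM) in the DMSO libraries and 2152 and 1929 CPM in the SGSS05-NS libraries. At an adjusted p-value under 0.001 in edgeR's quasi-likelihood test, 7 of the 9 tested markers were lower and 0 higher. Of all genes tested, 8.14% were lower and 6.37% higher. The part of the marker decrease in the clock gene results was not tested. Of 6 markers of other cell types found in the annotation, PTPRC, CD3E, KRT5 and ALB had 0 or 1 fragment per library. EPCAM had 37 and 37 fragments with DMSO and 53 and 84 with SGSS05-NS (log2 fold change 0.97, adjusted p = 0.012), and COL1A1 21 and 22 against 26 and 28. The summed level of the list was 2.35 and 2.53 CPM with DMSO and higher, at 3.60 and 4.80 CPM, with SGSS05-NS, and its part in the clock gene results was not tested. In bulk RNA, fewer cells that express a gene and less of its RNA per cell cannot be told apart.

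Upon SGSS05-NS treatment the clock genes did not move in a single direction. ARNTL and CRY1 fell, PER1 rose, and the NR1D1 and NR1D2 receptors were higher at a weaker level of evidence. Log2 fold changes are given with their standard error (SE). Calls were made in edgeR's quasi-likelihood test at an adjusted p-value under 0.001. The study uses the same threshold but names edgeR's likelihood ratio test. Of the 9 members tested, 1 was called higher, where 6.37% of all genes tested were, and 2 were called lower, where 8.14% were. With the adjusted p-value limit set at 0.05, 3 members were higher (PER1, NR1D1 and NR1D2) and 3 lower (ARNTL, CRY1 and CLOCK), beside 22.6% and 23.7% of all genes (46.3% in either direction). The groups did not overlap in any tested member, with SGSS05-NS above DMSO in 4 and below it in 5. Of all genes tested, 37.8% were above and 36.9% below without overlap, 74.7% in all. The median log2 fold change of the 9 members was -0.17, and that of all genes tested was 0.01. The members' median was -0.09 without DMSO replicate 2 and -0.05 without the filter on low counts, where BHLHE40 was included. BHLHE40 had too few counts to be tested.

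**Figure D1:**
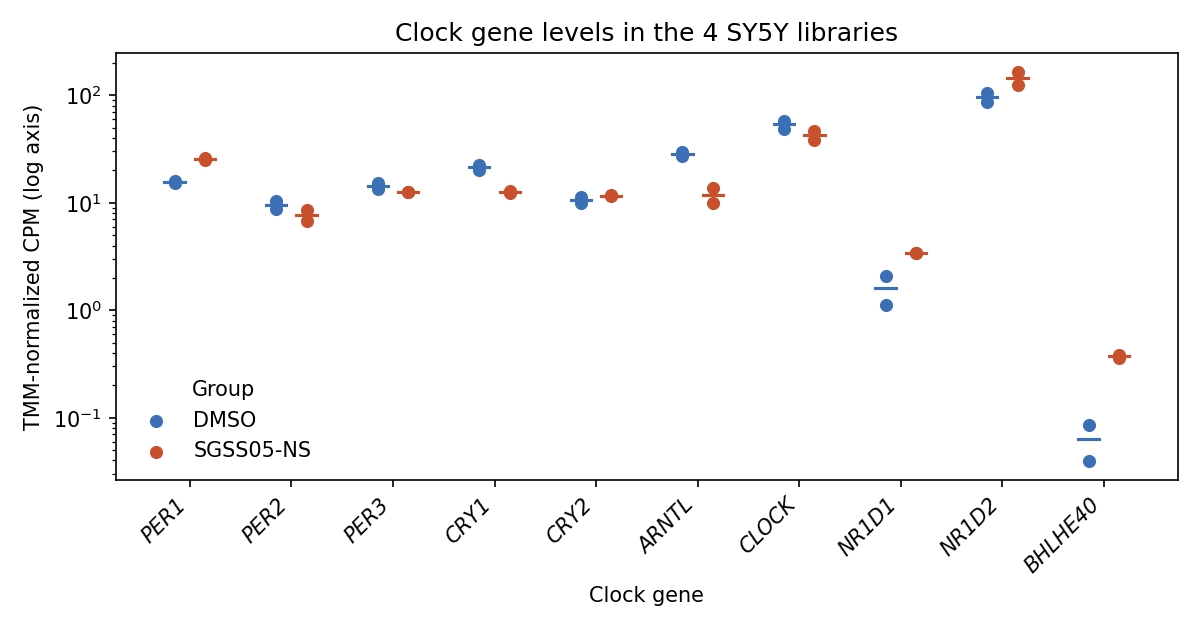
Level of each of the 10 clock genes in each library, in TMM-normalized CPM on a log axis. Points are single libraries of DMSO (blue) and SGSS05-NS (red), and short lines are the means of 2 libraries. ARNTL and CRY1 sit lower with SGSS05-NS, PER1, NR1D1, NR1D2 and BHLHE40 higher, and NR1D2 is the most abundant and BHLHE40 the least abundant in both groups.

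Of the activator genes, ARNTL (ENSG00000133794.13, GRCh37 chromosome 11, 13298199 to 13408813, plus strand) had the largest change of the members downward. Its level was 27.3 and 29.5 CPM with DMSO and 9.96 and 13.7 CPM with SGSS05-NS. Both treated libraries were thus below both controls, although they differed from each other more than the controls did. The log2 fold change was -1.26 (SE 0.15, adjusted p = 4.4e-05, edgeR's quasi-likelihood test), a level 2.39-fold lower than in DMSO, and it ranked 434 among the lower genes by p-value. The call held with each library left out in turn, with log2 fold changes from -1.51 to -1.05.

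CLOCK (ENSG00000134852.10, chromosome 4, 56294070 to 56413076, minus strand), the DNA-binding partner of ARNTL, had 48.9 and 58.1 CPM with DMSO and 46.5 and 38.1 CPM with SGSS05-NS. The nearest libraries of the groups were closer to each other than the replicates within either group. Its log2 fold change was -0.34 (SE 0.12, adjusted p = 0.037), so it was not called. Its adjusted p-value was above 0.05 in DESeq2 (0.059), with library size scaling (0.085) and with counts without regard to strand (0.11), and without DMSO replicate 2 (-0.21, adjusted p = 0.28) or SGSS05-NS replicate 2 (-0.20, adjusted p = 0.21). On the strand opposite to CLOCK, fragments were more numerous with SGSS05-NS (adjusted p = 2.7e-05), where 5.53% of the genes tested on that strand were called higher. Per length of exon, ARNTL and CLOCK stood close in DMSO, where the log2 ratio of ARNTL to CLOCK was -0.11 and -0.24 in the 2 libraries. With SGSS05-NS the ratio was -1.49 and -0.74. The paralogues listed beside them were not called either: ARNTL2 had a log2 fold change of -0.41 (adjusted p = 0.040), and NPAS2, which can replace CLOCK, one of -0.18 with only 8 to 27 fragments per library and no stable sign.

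Among the period genes, which encode the partners of the cryptochromes in the repressor complex, PER1 (ENSG00000179094.9, chromosome 17, 8043790 to 8059824, minus strand) was the member that rose. It had 15.1 and 16.0 CPM with DMSO and 26.1 and 24.7 CPM with SGSS05-NS. The replicates of each group lay close together, and the groups were well apart. The log2 fold change was 0.71 (SE 0.12, adjusted p = 0.00045), or 1.64-fold. With a single library left out the log2 fold change was between 0.67 and 0.75, but the adjusted p-value was above 0.001 without DMSO replicate 1 (0.0026), SGSS05-NS replicate 1 (0.0021) or SGSS05-NS replicate 2 (0.0011). PER1 overlaps a gene model on its own strand, ENSG00000263620, over 5691 bases. That model had 0 fragments in every library, and fragments on exons that both share would be set aside as ambiguous.

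PER2 (ENSG00000132326.7, chromosome 2, 239152685 to 239198743, minus strand) had 8.73 and 10.4 CPM with DMSO and 6.71 and 8.63 CPM with SGSS05-NS, which gave a log2 fold change of -0.31 (SE 0.17, adjusted p = 0.16). PER3 (ENSG00000049246.10, chromosome 1, 7844351 to 7905237, plus strand) had 13.5 and 15.1 CPM with DMSO and 12.7 CPM in both SGSS05-NS libraries. Its log2 fold change was -0.17 (SE 0.13, adjusted p = 0.31). Both were thus slightly below the controls, by about the difference between the 2 controls, and neither was called. The log2 ratio of PER1 to PER2, per length of exon, was 0.81 and 0.64 with DMSO and 1.98 and 1.54 with SGSS05-NS. Whether the response of PER1 differs from that of its paralogues was not tested beyond these values.

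The cryptochromes, the repressors that block the ARNTL and CLOCK activator directly, differed in their values as well. CRY1 (ENSG00000008405.7, chromosome 12, 107385142 to 107487327, minus strand) had 20.1 and 22.6 CPM with DMSO and 12.3 and 12.8 CPM with SGSS05-NS. The treated libraries lay close together and well below the controls. The log2 fold change was -0.76 (SE 0.13, adjusted p = 0.00047), or 1.70-fold lower. It ranged from -0.85 to -0.68 with single libraries left out, and the adjusted p-value was above 0.001 without DMSO replicate 2 (0.0032), SGSS05-NS replicate 1 (0.0023) or SGSS05-NS replicate 2 (0.0018), and when libraries were scaled by their size only (0.0011). CRY2 (ENSG00000121671.7, chromosome 11, 45868669 to 45904799, plus strand) had 11.2 and 9.97 CPM with DMSO and 11.8 and 11.5 CPM with SGSS05-NS, a log2 fold change of 0.13 (SE 0.14, adjusted p = 0.46). The log2 ratio of CRY1 to CRY2, per length of exon, thus went from 1.22 and 1.55 with DMSO to 0.44 and 0.53 with SGSS05-NS.

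The NR1D receptors, repressors of ARNTL, were both higher, without reaching the threshold in the quasi-likelihood test. In the likelihood ratio test, which the study names, both passed it (adjusted p = 0.00053 for NR1D1 and 0.00025 for NR1D2). In DESeq2, NR1D1 did not pass (adjusted p = 0.025). NR1D1 (ENSG00000126368.5, chromosome 17, 38249046 to 38256842, minus strand) had 28 and 49 fragments with DMSO and 75 and 80 with SGSS05-NS, or 1.12 and 2.10 CPM against 3.38 and 3.40 CPM. The treated libraries were alike, and the controls were not. Its log2 fold change of 1.09 (SE 0.28, adjusted p = 0.0082) was the largest of the tested members upward. The value rested on the controls, being 0.69 (adjusted p = 0.087) without DMSO replicate 1 and 1.60 (adjusted p = 0.00074) without DMSO replicate 2. NR1D1 overlaps THRA, a thyroid hormone receptor gene on the opposite strand, by 1075 bases, and the counts used here keep the strands apart.

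NR1D2 (ENSG00000174738.8, chromosome 3, 23986777 to 24022108, plus strand), which encodes the paralogue, had 86.8 and 106 CPM with DMSO and 126 and 163 CPM with SGSS05-NS. The groups did not overlap, with a wide spread within each. The log2 fold change was 0.59 (SE 0.13, adjusted p = 0.0034). It passed the threshold without DMSO replicate 2 (0.73, adjusted p = 0.00032) or SGSS05-NS replicate 1 (0.76, adjusted p = 0.00038), and was 0.45 (adjusted p = 0.020) without DMSO replicate 1 and 0.39 (adjusted p = 0.025) without SGSS05-NS replicate 2. It also passed in DESeq2 (adjusted p = 0.00056).

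BHLHE40 (ENSG00000134107.4, chromosome 3, 5021122 to 5027008, plus strand), the E-box repressor DEC1, was nearly silent, with 1 and 2 fragments under DMSO against 8 and 9 under SGSS05-NS. After scaling this was a ratio of 6.01, with an exact binomial 95% interval from 1.74 to 32.0 that covers counting error only. Fitted without a filter on low counts, its adjusted p-value was 0.014. Its paralogue BHLHE41 (DEC2), from the wider list below, was as rare, with 1 and 2 fragments against 10 and 14, a ratio of 8.48 (interval from 2.58 to 43.99). BHLHE41 did pass the low count filter, with an adjusted p-value of 0.0020, and was not called. Fitted without the filter, its adjusted p-value was 0.00042. Over the 8 alternatives that kept all libraries and tested it, the adjusted p-value ran from 9.8e-05 (likelihood ratio test) to 0.044 (DESeq2).

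Set in order by level per length (CPM per kilobase of exon), the members of the DMSO libraries ran from NR1D2 at 16.6 ± 2.30 (SD, n = 2) through CLOCK at 4.64 ± 0.568, CRY1 at 4.47 ± 0.366 and ARNTL at 4.10 ± 0.228 to PER1 at 2.22 ± 0.0869. Below them stood PER3 at 1.76 ± 0.143, CRY2 at 1.71 ± 0.144, PER2 at 1.35 ± 0.167, NR1D1 at 0.611 ± 0.264 and BHLHE40 at 0.0178 ± 0.00920. The libraries of CLOCK and CRY1 overlapped, as did those of CRY1 and ARNTL and of PER3 and CRY2, so these neighbours were not separated beyond their spread. With SGSS05-NS, PER1 stood in place 3 at 3.63 ± 0.140, next to CLOCK at 3.66 ± 0.515, and ARNTL in place 6 at 1.71 ± 0.385, between CRY2 and PER3 with overlapping libraries. NR1D1 (1.29 ± 0.00592) then stood above PER2 (1.08 ± 0.191). The log2 ratio of PER1 to ARNTL was -0.87 and -0.90 with DMSO and 1.38 and 0.84 with SGSS05-NS. On this scale PER1 thus went from below ARNTL to above it. Any PER1 fragments set aside as ambiguous at its overlapping gene model would lower its level per length, and its place, in both groups. The log2 ratio of NR1D1 to ARNTL was -3.21 and -2.42 with DMSO and -0.16 and -0.61 with SGSS05-NS.

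The members above and below DMSO also differed in genomic length, with no overlap. The 4 tested members with SGSS05-NS above DMSO spanned 7.80 kb (NR1D1), 16.0 kb (PER1), 35.3 kb (NR1D2) and 36.1 kb (CRY2). The 5 below spanned 46.1 kb (PER2), 60.9 kb (PER3), 102 kb (CRY1), 111 kb (ARNTL) and 119 kb (CLOCK). Length and log2 fold change also went together over all genes, with a Spearman correlation of -0.22 across the 16042 tested genes with a known length, which are not independent replicates. Of the 2833 tested genes over 100 kb, 27.8% were called lower and 1.48% higher, with a median log2 fold change of -0.42. CLOCK, at -0.34, was near that median, and CRY1 and ARNTL were below it. Among the 5091 genes of 10 to 40 kb, 9.96% were called higher and 1.77% lower, with a median of 0.16. PER1 and NR1D2 stood above it and CRY2, at 0.13, below it. Of the 3342 genes of 40 to 100 kb, which include PER2 and PER3, 5.03% were called higher and 4.4% lower. Their median was -0.012. Of the 4776 genes under 10 kb, which include NR1D1, 6.6% were called higher and 5.86% lower, with a median of 0.096. The median thus did not fall steadily with length. The part of gene length in the clock gene results was not tested.

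The rest of the pathway was described by a list of 42 genes, of which 39 were tested. Of these 6 were called higher and 4 lower, beside 6.37% and 8.14% of all genes. Their median log2 fold change was -0.03, and it turned positive without DMSO replicate 1 (0.14), DMSO replicate 2 (0.12) or SGSS05-NS replicate 1 (0.17), in limma voom (0.036) and with counts without regard to strand (0.037), and with library size scaling (0.0043). Of the ROR receptors, which activate ARNTL, RORB fell from 95.1 and 109 CPM to 58.1 and 47.2 CPM (log2 fold change -0.96, adjusted p = 5.3e-05). RORA had a log2 fold change of 0.35 (adjusted p = 0.094). TIMELESS had a log2 fold change of -0.40 (adjusted p = 0.0040), and CIART was at 0 to 2 fragments. In this group of 8 clock factors and repressors, 0 were thus called higher and 1 lower.

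The PAR bZip factors DBP, TEF and HLF activate D-box genes and NFIL3 represses them. NFIL3 rose from 16.9 and 17.7 CPM to 26.0 and 28.9 CPM (log2 fold change 0.67, adjusted p = 0.00072). The call was lost without DMSO replicate 1 (0.0039), DMSO replicate 2 (0.0014) or SGSS05-NS replicate 2 (0.0047), and with counts without regard to strand (0.0011). DBP, a direct target of the ARNTL and CLOCK activator, had 8.85 and 7.66 CPM with DMSO and 8.74 and 13.6 CPM with SGSS05-NS, so its groups overlapped (log2 fold change 0.44, adjusted p = 0.090). It was 0.71 (adjusted p = 0.0061) without SGSS05-NS replicate 1 and 0.08 (adjusted p = 0.76) without SGSS05-NS replicate 2. TEF had a log2 fold change of -0.29 (adjusted p = 0.34), and it turned to 0.12 without DMSO replicate 2.

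Kinases and ubiquitin ligases set the stability of the PER and CRY proteins. Of 9 tested, 3 were called lower and 1 higher, beside 8.14% and 6.37% of all genes tested. BTRC (-0.91, adjusted p = 0.00018) and FBXW11 (-0.52, adjusted p = 0.00079), ligases that take PER proteins to the proteasome, fell on the log2 scale. So did GSK3B (-0.92, adjusted p = 0.00021), a kinase of several clock proteins. The call of FBXW11 was lost with any 1 library left out (adjusted p from 0.0012 to 0.0047) and with library size scaling (0.0026), and that of GSK3B without SGSS05-NS replicate 2 (0.0015). BTRC, FBXW11 and GSK3B span 145 to 274 kb, and 27.8% of the tested genes over 100 kb were called lower. The part of length in these calls was not tested. CSNK2A2, a catalytic subunit of casein kinase 2 named here after its value was seen, was the 1 that rose (0.66, adjusted p = 0.00086). Its call was lost without DMSO replicate 1 (0.0069), SGSS05-NS replicate 1 (0.0022) or SGSS05-NS replicate 2 (0.0024), with library size scaling (0.0013) and with counts without regard to strand (0.0015). The kinases CSNK1D (0.46, adjusted p = 0.0018) and CSNK1E (0.21, adjusted p = 0.075), also named after their values were seen, were not called. CSNK2B was listed at 0 in all libraries. The counts leave out multimapping and ambiguous fragments, so whether this gene is silent cannot be told.

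None of the 6 tested corepressors and other nuclear partners of clock proteins passed the threshold. NCOR1, the corepressor that NR1D receptors recruit, had a log2 fold change of -0.60 (adjusted p = 0.0012), SFPQ one of -0.50 (adjusted p = 0.0013) and SIRT1 one of 0.41 (adjusted p = 0.0033). With the limit at 0.05, 1 of the 6 was higher and 4 were lower in edgeR's test, beside 22.6% and 23.7% of all genes. NCOR1 passed the threshold of 0.001 in DESeq2 (adjusted p = 3.5e-05), as did SFPQ (adjusted p = 1.7e-05).

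The input genes, through which cAMP and hormones reach PER1, had 3 called higher of 10 and 0 lower, beside 6.37% and 8.14% of all genes. SIK1, a kinase that restrains the CREB coactivators and is itself a CREB target, went from 3.79 and 2.82 CPM to 9.87 and 15.5 CPM, a log2 fold change of 1.94 (SE 0.23, adjusted p = 5.0e-05). CREM, a relative of CREB, rose by 0.89 (adjusted p = 0.00019) and CRTC2, a CREB coactivator, by 0.83 (adjusted p = 0.00043). The call of CREM was lost without SGSS05-NS replicate 1 (0.0011), and that of CRTC2 without DMSO replicate 2 (0.0024), SGSS05-NS replicate 1 (0.0018) or SGSS05-NS replicate 2 (0.0012). CREB1 itself had a log2 fold change of -0.03 (adjusted p = 0.84). Among 4 genes known to be under clock control in other tissues, NAMPT, an enzyme of NAD synthesis, rose from 57.9 and 64.8 CPM to 88.7 and 108 CPM (log2 fold change 0.68, adjusted p = 0.00047), a call lost without DMSO replicate 1 (0.0023) or SGSS05-NS replicate 2 (0.0021). USP2 (0.89, adjusted p = 0.0032) and TSC22D3 (0.55, adjusted p = 0.0014) were not called.

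**Figure D2:**
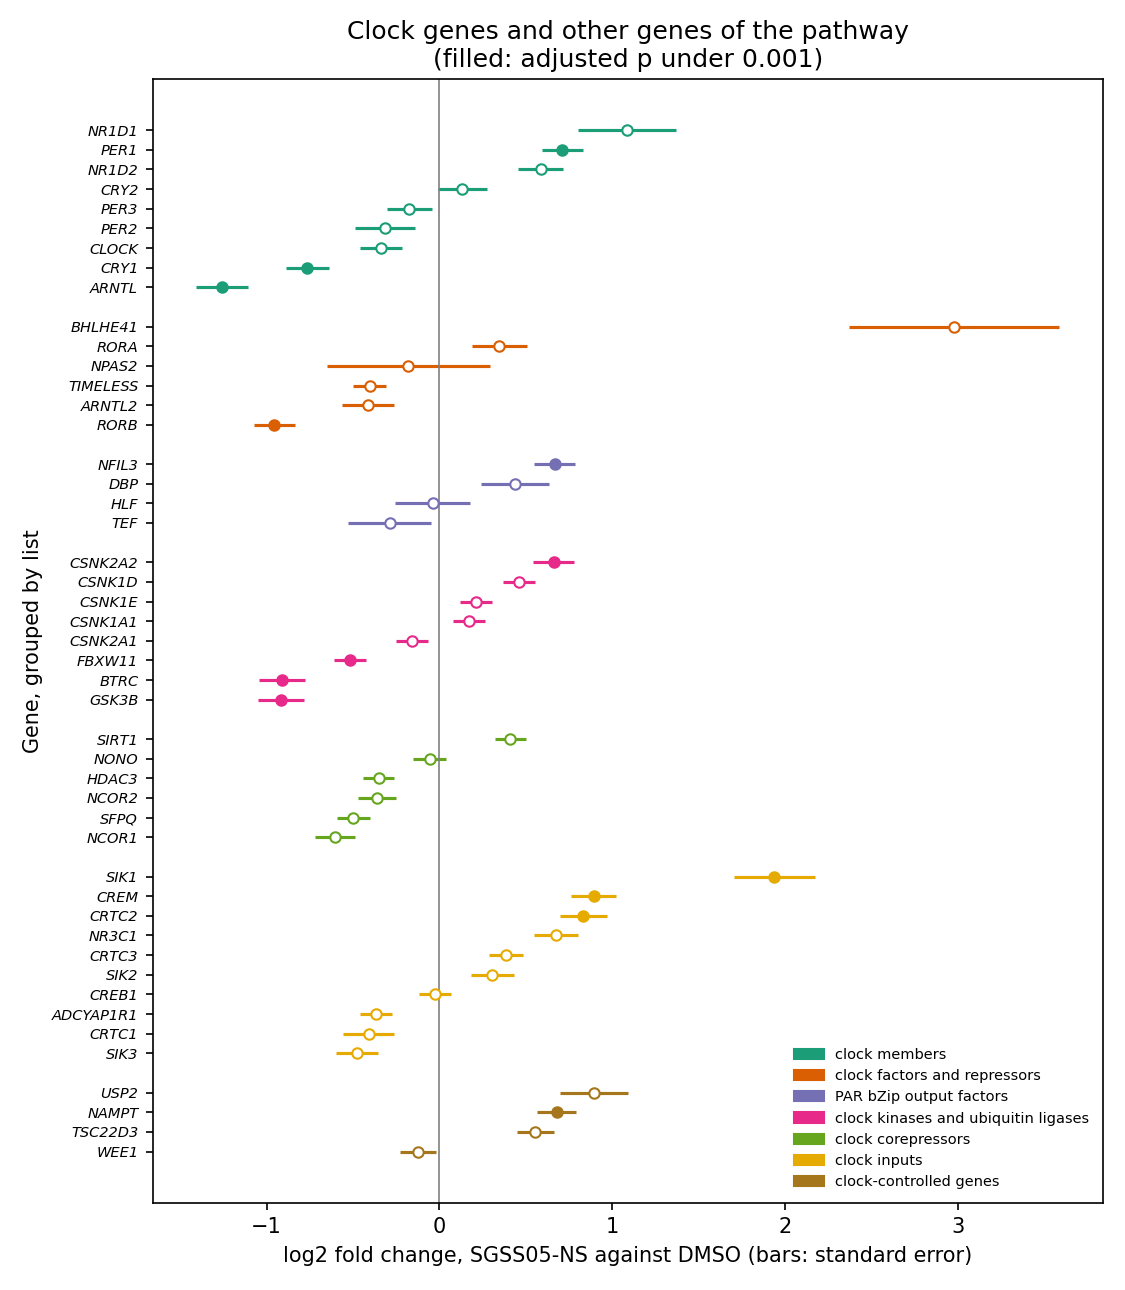
Log2 fold change of the 9 tested clock genes and of tested other genes of the pathway, grouped and coloured by list, with bars of 1 standard error. Filled points passed an adjusted p-value of 0.001 in edgeR's quasi-likelihood test. Filled points lie on both sides of 0 among the clock genes (PER1 against CRY1 and ARNTL) and among the kinases and ubiquitin ligases.

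The genes with the profile over the 4 libraries nearest to that of PER1, among 1966 called genes whose mean log2 CPM was 2 or more, were PPP2CB, DNAJC2 and ZNF841. Their distances, on centred log2 CPM, were 0.0192, 0.0368 and 0.0371. Nearest to ARNTL were PPP1R9A, RSU1 and FBXL17, at distances of 0.0489, 0.0507 and 0.0725. With 4 libraries in 2 groups, such a distance reflects little more than the size of the change and the spread between replicates.

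**Figure D3:**
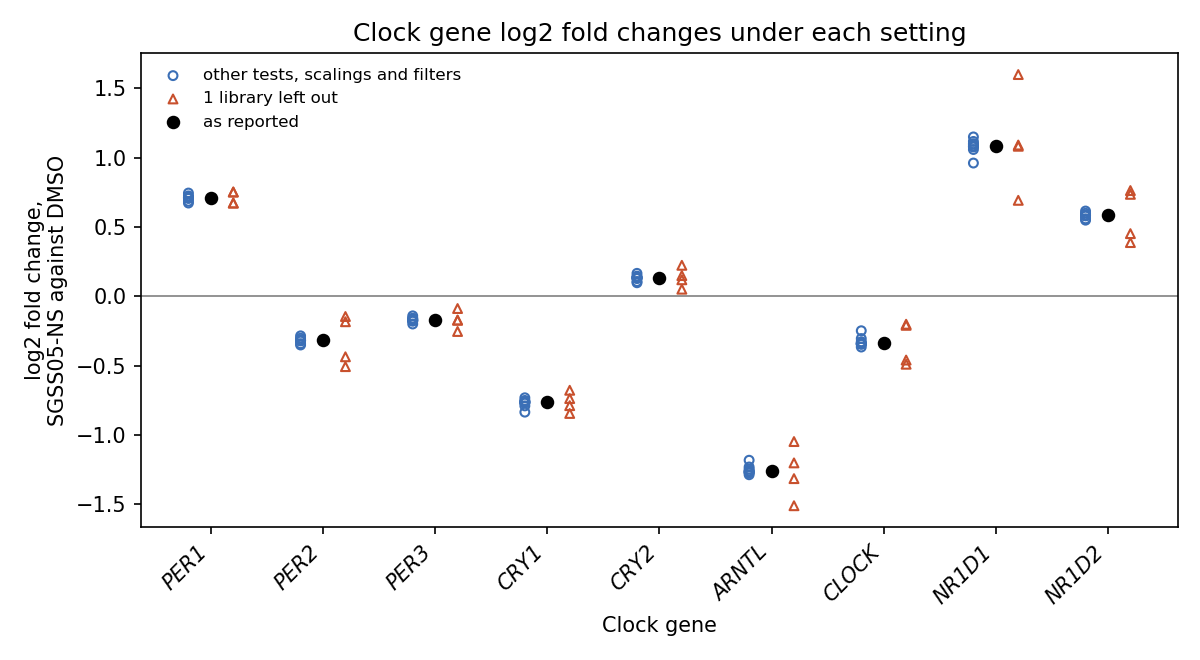
Log2 fold change of the 9 tested clock genes as reported (black), under the other tests, scalings, filters, strand setting and replicate block (blue circles) and with 1 library left out (red triangles). Every member kept its sign, and NR1D1 moved most, from 0.69 to 1.60 with single libraries left out.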

How the data were processed

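RNA of SY5Y cells was sequenced as paired reads on an Illumina HiSeq2500. Per the study's methods and the submitters' processing notes, the authors trimmed reads with Trimmomatic (version 0.30), aligned them to hg19 with STAR (version 2.4.2a) and GENCODE, and deposited unnormalized counts per gene for each library. STAR leaves multimapping fragments out of these counts. The methods name a stranded total RNA kit, the labels a TruSeq RNA kit. The column of reverse-stranded counts was used, without its summary rows.

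Positions and lengths came from GENCODE release 44 on GRCh37 (55538 of 57820 identifiers matched). edgeR 4.0.16 in R 4.3.3 was applied with filterByExpr, TMM scaling and the quasi-likelihood test with treatment as the only term, and Benjamini-Hochberg adjustment over 16468 genes. The standard error is the log2 fold change divided by the square root of F. CPM are TMM-scaled. The methods of the study name edgeR's likelihood ratio test, which was an alternative here, beside DESeq2 1.42.0, limma voom (3.58.1), other scalings and filters, counts without regard to strand, a replicate block, a threshold of 0.05 and each library left out. On simulated counts for this comparison over 16468 genes, with 200 genes of mean count 50 or more changed, 86% of genes changed 2-fold and 100% of those changed 4-fold were called, with 2 false calls. Far fewer genes were changed there than were called in the data, and none by less than 2-fold. These shares therefore do not apply to smaller changes such as those of PER1 and CRY1.

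The members and gene lists were chosen with earlier results of these data known. Named were all members and, of each list of other clock genes, the 3 with the smallest p-values, and for the called member with the smallest p-value in each direction the 3 most similar profiles. Genes named beyond this rule were chosen after their values were seen. Replicates differed by more than sampling noise (chi-square over degrees of freedom 8.76 in DMSO, 11.8 in SGSS05-NS). Single values of some listed genes are not reported here.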

Additional observations from a re-analysis of the deposited data

Results flagged for a closer look

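Fragments on the strand opposite to CLOCK, a column the comparisons above do not use, were more numerous with SGSS05-NS. There were 48 and 31 such fragments with DMSO and 129 and 122 with SGSS05-NS, or 1.91 and 1.33 CPM against 5.81 and 5.19 CPM. In edgeR's quasi-likelihood test over the 7200 genes with enough counts in that column, which was chosen after the data were seen, the log2 fold change was 1.75 (SE 0.22, adjusted p = 2.7e-05), where 5.53% of the genes were called higher and the median log2 fold change was 0.33. TMEM165 overlaps CLOCK on that strand by 25495 bases and had a log2 fold change of -0.21 on its own strand (adjusted p = 0.132). Of the other members, ARNTL (0.45, adjusted p = 0.36) and NR1D1 (-0.24, adjusted p = 0.45) could be tested in that column and were not called.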

How the results depend on the processing

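The sign of all 9 tested members was the same under each alternative run. The median of all genes moved by less than 0.1 (log2) under the other scalings. The call of ARNTL held in each alternative. PER1 was called in the 10 alternatives that kept all libraries, and CRY1 in 9 of them. Among these, the alternative with the limit at 0.05 reused the reported fit with a looser limit. Every reported call and sign was therefore bound to hold there, and that alternative does not test them. The number of all genes called higher, 1049, became 2022 with the likelihood ratio test, 2034 without a filter on low counts and 3728 at an adjusted p-value under 0.05. The 1341 lower became 2267, 2570 and 3903. Members called higher, 1 as reported, were 3 in each of these settings and 2 in DESeq2. Members called lower, 2 as reported, were 1 with scaling by library size only. Other clock genes called higher, 6 as reported, were 12, 11 and 14, and those called lower, 4 as reported, were 9 without the filter and 13 at 0.05. With the replicate block, 1759 genes, 2 members (PER1 and NR1D2) and 11 other clock genes were called higher. The deviations of same-numbered libraries had a correlation of 0.05 across genes, and the numbers were not taken as pairs. The block nevertheless gave more calls, with 2007 genes lower against 1341 without it. Whether the numbers mark pairs was not settled.

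With single libraries left out, where the lone library of a group is assumed to vary like the others, the genes called ranged from 739 to 921 higher and from 967 to 1245 lower. For members the range was 0 to 3 higher and 1 to 2 lower, and for other clock genes 2 to 4 higher and 3 to 4 lower. TEF ranged from -0.61 to 0.12 and changed sign without DMSO replicate 2, NPAS2 from -0.76 to 0.88 and CREB1 from -0.076 to 0.022. NPAS2 also changed sign in limma voom (0.036) and with counts without regard to strand (0.54), and CREB1 with library size scaling (0.0043). The cause of these moves was not tested. BHLHE40 and BHLHE41 had 1 to 14 fragments per library, which limits their precision.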
